A study of Mus musculus with 3 samples.

Results

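The enzymes of glycolysis were described across the 3 time points of a palate fusion series. The set was fixed by name and not by measured values: the probe sets assigned to Hk1, Hk2, Gpi1, Aldoa, Tpi1, Pgk1, Pgam1, Eno1, Pkm or Ldha. Of these 10 genes, 8 had a probe set naming that gene alone, giving 11 probe sets and 8 of the 8251 genes represented. Probe sets naming several genes were not used. No set named Gpi1 or Eno1 alone, so these genes have no signals here and enter the promoter counts only. Hk2, Aldoa and Pkm had more than 1 probe set, and the other 5 genes had 1 each.

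All tissue was medial edge epithelium, the cell layer at the tips of the palatal shelves, from CF-1 mouse embryos at embryonic day 13.5. The 0 h array held epithelium from unfused shelves that had not been cultured. The 12 h array held fused epithelium from shelves kept together in culture for 12 h after contact, and the 24 h array fused epithelium at 24 h, labelled as undergoing transformation into mesenchyme. No genotype, transgene or added agent is named for any of the groups, and how many embryos went into each array was not stated in the labels. With 1 array per time point no difference has a replicate check or a p-value, and culture and fusion cannot be told apart, since only the fused tissue was cultured.

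Glycolysis splits glucose into pyruvate in the cytosol and yields ATP without oxygen. Hexokinase traps glucose as a phosphate ester, aldolase and triose phosphate isomerase turn the sugar into triose phosphates, phosphoglycerate kinase and pyruvate kinase make the ATP, and lactate dehydrogenase regenerates the cofactor NAD. Many of these genes are known targets of the hypoxia-inducible factor HIF-1, and embryonic and proliferating tissues are known for a high glycolytic rate.

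Signals below are on a linear scale after the arrays had been brought to a common trimmed mean, and a ratio is the log2 of one array's signal over another's. Before scaling, the trimmed means ranged from 46.8 to 93.7. Signals at or under 13.5, the 40th percentile of all arrays together, were treated as floor. A gene was represented by its brightest probe set and was counted as different at 2-fold or more. The error between samples could not be gauged with 1 array per time point. Only the disagreement between probe sets of the same gene was available. Log2 ratios of single probe sets scattered about the mean of their gene with an SD of 1.24 in 12 h over 0 h. It was 0.82 in 24 h over 12 h and 1.07 in 24 h over 0 h. This scatter also contains real differences between transcripts. Sets of a gene are read from the same RNA, so it lacks the variation between embryos or dissections. A ratio given in multiples of this SD is therefore not a test. The tissue label was checked against 12 epithelial genes, of which 9, 7 and 9 exceeded the floor on the 0, 12 and 24 h arrays. The stratified keratins Krt5, Krt14 and Krt15 were on the floor on all 3 arrays, while Krt8, Krt18, Krt19, Cdh1, Epcam, Trp63 and Dsp were above it on all 3. Jup and Cldn4 were on the floor at 12 h only, with signals of 57.6, 4.14 and 34.7 for Jup and 206, 12.8 and 82.6 for Cldn4. Of 14 mesenchyme markers, 14, 11 and 12 exceeded it in the same order, so the samples held mesenchymal transcripts at every time. In such mixed tissue, fewer cells of a type and less RNA per cell cannot be told apart.

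The sequences upstream of the measured enzymes with a single listed start site are shown because each of these 4 genes has 1 unambiguous window. They are Pgk1 and Pgam1 with the highest signal at 12 h, Tpi1 with the lowest at 12 h, and Hk2, whose signal varied little; Hk1 and Aldoa, which had other courses, list several starts. Each is the 250 bases before the start site from RefSeq (GRCm38.p6), read 5' to 3' on the gene's strand. Pgk1 lies at chrX:106186850-106187099 (+), Pgam1 at chr19:41911621-41911870 (+), Tpi1 at chr6:124814159-124814408 (-) and Hk2 at chr6:82774455-82774704 (-). Capitals mark ACGTG or GCGTG on either strand, the core of the element to which HIF-1 binds.
Pgk1: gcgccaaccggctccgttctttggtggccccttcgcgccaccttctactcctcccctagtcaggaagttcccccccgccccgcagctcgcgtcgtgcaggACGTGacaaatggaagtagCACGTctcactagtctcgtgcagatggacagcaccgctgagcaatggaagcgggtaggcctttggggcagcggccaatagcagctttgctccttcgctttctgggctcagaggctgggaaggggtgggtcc
Pgam1: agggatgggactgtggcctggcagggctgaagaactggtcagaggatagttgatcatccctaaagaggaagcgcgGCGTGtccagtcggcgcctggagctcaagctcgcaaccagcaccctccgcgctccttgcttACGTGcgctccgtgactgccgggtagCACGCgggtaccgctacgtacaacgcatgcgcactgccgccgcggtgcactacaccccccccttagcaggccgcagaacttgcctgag
Tpi1: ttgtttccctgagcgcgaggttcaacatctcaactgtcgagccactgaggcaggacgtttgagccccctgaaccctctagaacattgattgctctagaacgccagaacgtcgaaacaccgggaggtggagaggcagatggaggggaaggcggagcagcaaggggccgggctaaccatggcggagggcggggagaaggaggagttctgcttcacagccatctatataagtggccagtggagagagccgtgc
Hk2: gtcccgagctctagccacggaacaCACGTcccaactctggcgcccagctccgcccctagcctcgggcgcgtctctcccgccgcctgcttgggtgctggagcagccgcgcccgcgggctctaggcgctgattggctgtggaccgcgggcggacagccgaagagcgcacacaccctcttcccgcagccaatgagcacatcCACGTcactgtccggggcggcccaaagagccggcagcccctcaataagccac

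The Pgk1 window held 2 cores, beginning 150 and 131 bases before the start, the Pgam1 window 3, at 175, 114 and 88 bases, and the Hk2 window 2, at 226 and 52 bases. No core was found in the Tpi1 window. Of the measured genes with several starts, the most cores in a window were 3 for Hk1, 1 for Aldoa, 1 for Pkm and 5 for Ldha. The 5 of Ldha include 2 CACGTG sites, each counted on both strands. Each of these genes also had a window with fewer cores. Cores were thus present in measured genes with higher, lower and similar signals at 12 h. All 10 genes of the set had promoters in the table, 17 windows in all, because 5 genes list several starts, some of them overlapping. Among these windows, which include those of Gpi1 and Eno1, 12 of 17 held ACGTG or GCGTG, compared with 38.6% of 32851 windows of all genes. By motif, 7 of 17 held ACGTG (16.6% of all windows), 6 of 17 GCGTG (28.2%), 1 of 17 CACGTG (6.02%), which contains ACGTG on both strands, and 10 of 17 the GC box GGGCGG (32.7%). Bases G and C made up 49.6% to 71.2% of the members' windows, with a median of 62.8% against 52.4% over all windows. Of the 8 measured genes, 7 had a core in at least 1 window. Counted by gene, 8 of all 10 had one, where 41.5% of 27025 genes did. A gene with several windows has more chances to hold a core. These matches describe letters in a window and no binding was measured.

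The hexokinases differed in their time course. Hk1, the broadly expressed hexokinase that also serves red cells and brain, had signals of 1729, 276 and 229 on the 0, 12 and 24 h arrays. It was high before culture and low on both cultured arrays, 6.27-fold lower at 12 h and 7.54-fold lower at 24 h than at 0 h, and between 12 h and 24 h its log2 ratio was -0.27. The 12 h and 24 h ratios to 0 h were 2.14 and 2.73 times the probe-set SD of their comparison, and only 0.86% of all genes with a ratio lay below Hk1 in 24 h over 0 h. Hk2, the inducible hexokinase of muscle and growing cells, had signals of 73.7, 61.7 and 75.9 in the same order. Its log2 ratios were -0.26 for 12 h over 0 h, 0.30 from 12 h to 24 h and 0.04 for 24 h over 0 h, none of them over 0.37 times the SD. The other probe set of Hk2, 161313_at, was on the floor throughout.

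Red cell transcripts, like Hk1, were lower on both cultured arrays than at 0 h. Of 6 erythroid markers on the array, 5 had a ratio for 12 h over 0 h. All 5 were at least 2-fold lower at 12 h, where 27.3% of all genes were. For 24 h over 0 h this held for 4 of 5, where 17.7% of all genes were. From 12 h to 24 h they differed from Hk1: 3 of 5 had a log2 ratio above 0 and 2 below, with a median of 0.89. In that step 1 was at least 2-fold higher, Hba-a1, where 18.8% of all genes were. Their signals summed to 6461 before culture and to 1583 and 1497 on the cultured arrays. The defining globins remained above the floor on all arrays, with Hba-a1 at 2407, 228 and 570 and Hbb-y at 3158, 1290 and 839, and Epb42 was on the floor on all 3. Bpgm, the red cell enzyme that makes 2,3-bisphosphoglycerate, went the other way, with signals of 69.7, 260 and 177. The part of red cells in the Hk1 ratio was not tested.

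Aldolase A, which cleaves fructose bisphosphate, was measured by probe sets that disagreed. The brighter one, 161889_f_at, had signals of 224, 767 and 1346 at 0, 12 and 24 h, so each later array was higher. The other, 160090_f_at, had 865, 265 and 1187, with its lowest signal at 12 h. For 12 h over 0 h the first was 3.42-fold higher and the other 3.27-fold lower. That gap of 3.48 on the log2 scale was exceeded by 5.12% of 606 genes with 2 measured probe sets, whose median gap was 1.04. Both sets were higher at 24 h than at 12 h, with log2 ratios of 0.81 and 2.16, and at 24 h than at 0 h, with 2.59 and 0.46. Both carry the suffix that marks probes shared within a gene family.

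Triose phosphate isomerase, encoded by Tpi1, had signals of 1016, 231 and 1007 in time order. The 12 h array was low and the other 2 were alike: Tpi1 was 4.39-fold lower at 12 h than before culture and then 4.35-fold higher at 24 h, and had a log2 ratio of -0.01 for 24 h over 0 h. In 24 h over 12 h only 2.80% of genes had a higher ratio. The next enzyme, Gapdh, is on this array as a quality control with separate probe sets along the transcript. Its 3' set had 2897, 668 and 3060 at the 3 times, a course close to that of Tpi1, with log2 ratios of -2.12, 2.20 and 0.08.

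The other Gapdh sets gave a much lower signal on the cultured arrays. The middle set had 3216, 74.9 and 1026, and the 5' set 3499, 44.9 and 244. At 12 h the 5' set was therefore 77.8-fold lower than at 0 h and the 3' set 4.34-fold lower, so that the size of the 12 h difference of this 1 enzyme depended on the position probed. Actb, the cytoskeletal actin, is another such control and also had the lowest signal at 12 h with all 3 of its sets, with log2 ratios for 12 h over 0 h of -2.86 at the 3' end and -6.40 at the 5' end. Pcx, the pyruvate carboxylase, is probed in the same way but lay near the floor. Its 3' set had 57.8, 17.8 and 14.8 and its 5' set 13.1, 6.76 and 23.6, the latter on the floor at 0 h and 12 h. Its 3' to 5' ratios were 4.41 at 0 h, 2.63 at 12 h and 0.63 at 24 h. They rest on signals on or near the floor and are not read as a course. The place of the members' probe sets on their transcripts was not available for this work, and the part of the probed position in their ratios was not tested.

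**Figure D1:**
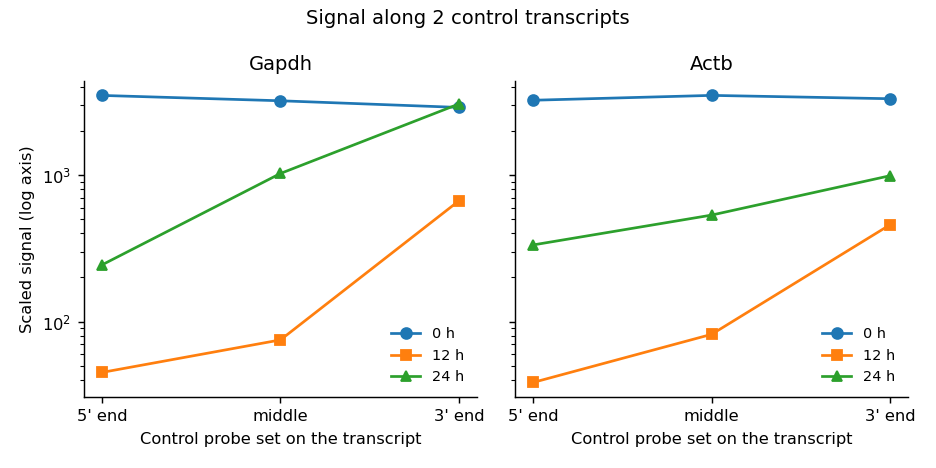
Scaled signal (log axis) of the 5', middle and 3' control probe sets of Gapdh and Actb, 1 point per array, with a line for each time. At 0 h the lines are flat, whereas at 12 h and 24 h the signal is lowest at the 5' end, as for Gapdh with 44.9 at the 5' end and 668 at the 3' end at 12 h.

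Pgk1 and Pgam1, which act one after the other below Gapdh, were higher on both cultured arrays. Pgk1, the kinase that makes the first ATP of the pathway, had signals of 362, 2734 and 2303 at 0, 12 and 24 h. Relative to 0 h it was 7.55-fold higher at 12 h and 6.36-fold higher at 24 h, and 1.82% and 1.69% of all genes had a higher ratio in these comparisons. Pgam1, the phosphoglycerate mutase, had 332, 947 and 882, which was 2.85-fold higher at 12 h and 2.66-fold higher at 24 h. Neither gene differed by 2-fold between 12 h and 24 h, with log2 ratios of -0.25 and -0.10. The 12 h over 0 h ratio was 2.35 times the probe-set SD for Pgk1 and 1.22 times for Pgam1. Each had a single probe set, so no other set bears on these values. Mesenchyme markers had 6 of 14 genes at least 2-fold higher and 5 lower for 12 h over 0 h, and their signals summed to 4720, 8997 and 9667 on the 3 arrays, with the largest increases in signal from 0 h to 12 h in the collagens Col1a1 and Col1a2 and in Lum. Mfap2 and Twist2 of the same list were 37.8-fold and 12.1-fold lower at 12 h, and Prrx2 had a log2 ratio of -4.32; Prrx1 and Pdgfrb were on the floor at 12 h and 24 h and Vim at 12 h. Over all genes, 17.7% were at least 2-fold higher and 27.3% lower in that comparison. Higher sums on both cultured arrays were not particular to mesenchyme. The epithelial markers summed to 890, 1550 and 1458, and 7 endothelial markers to 280, 531 and 553. The sums of erythroid and striated muscle markers were lower on both. The part of any of these cell types in the ratios of Pgk1 and Pgam1 was not tested.

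Pyruvate kinase, encoded by Pkm, makes the last ATP of the pathway, and its probe sets also disagreed. The brighter one, 96066_s_at, had signals of 940, 75.2 and 516, with a 12 h array 12.5-fold lower than at 0 h and a 24 h array 6.86-fold higher than at 12 h. The other, 162032_f_at, had 446, 360 and 318 and log2 ratios of -0.31 for 12 h over 0 h, -0.18 from 12 h to 24 h and -0.49 for 24 h over 0 h. The gap between both sets was 3.34 on the log2 scale for 12 h over 0 h and 2.96 for 24 h over 12 h, and 0.97% of 618 genes with 2 measured sets had a larger gap in the latter. Both sets were lower at 24 h than at 0 h, by less than 2-fold, so the recovery at 24 h rests on 1 of the sets. The muscle and embryonic splice forms of Pkm were not told apart here.

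Lactate dehydrogenase A, which turns pyruvate into lactate, had Ldha signals of 778, 750 and 1337. The 0 h and 12 h arrays were alike and the 24 h array was highest, at 1.78 times the 12 h signal and 1.72 times the 0 h signal. Neither ratio reached 2-fold, and that for 24 h over 12 h, 0.84 on the log2 scale, was 1.02 times the probe-set SD.

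**Figure D2:**
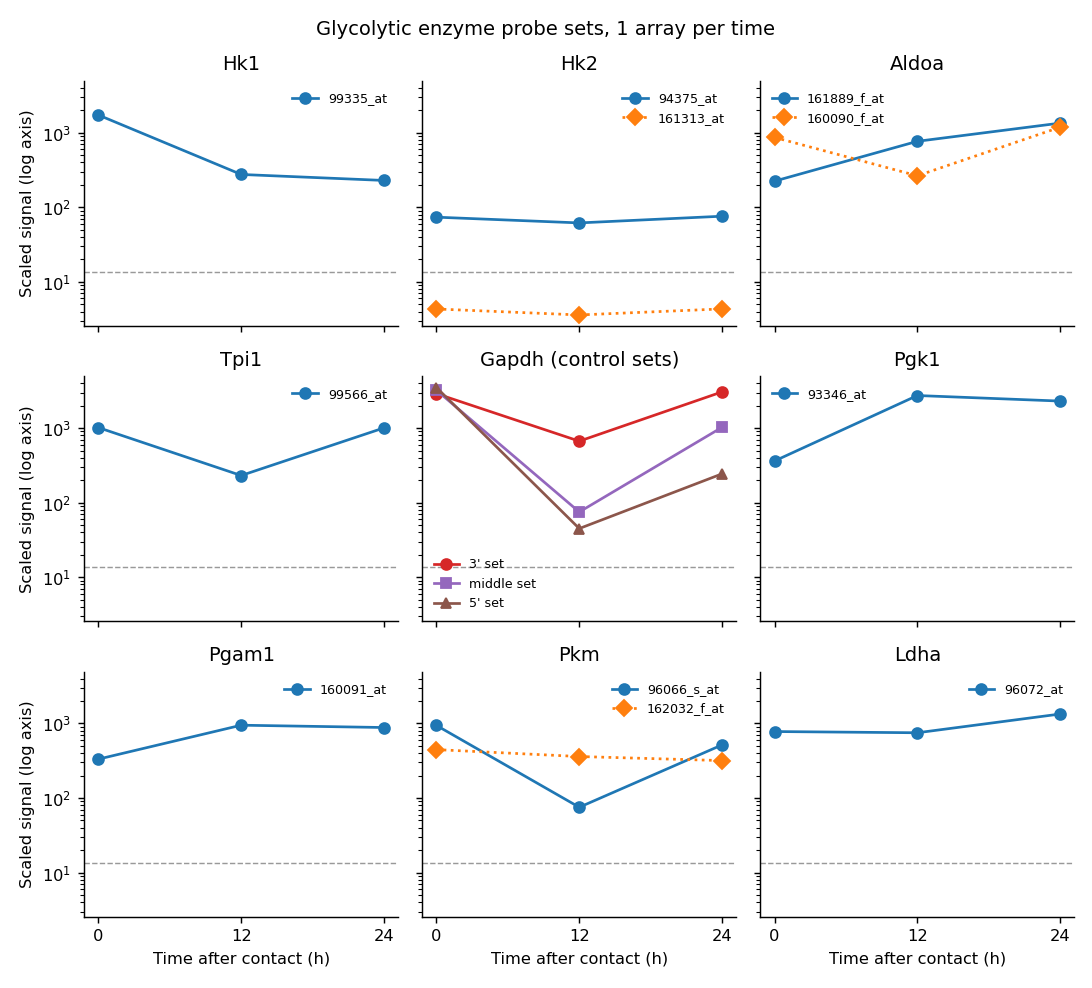
Scaled signal (log axis) at 0, 12 and 24 h for every probe set of the measured enzymes, in pathway order, with the 3 control sets of Gapdh between Tpi1 and Pgk1; solid blue lines are the set that stands for a gene, dotted orange lines its other set, and the dashed line is the floor of 13.5. Tpi1, 1 set each of Aldoa and Pkm, and Gapdh dip at 12 h, Pgk1 and Pgam1 are higher at 12 h and 24 h, and Hk1 is lower at both.

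In time course the members were mixed. Of their 10 probe sets above the floor on all arrays, 5 had the lowest signal at 12 h, 2 the highest at 12 h, 1 was higher at each step and 2 were lower at each step. Over all 5376 such probe sets the shares were 41.9%, 31.2%, 13.5% and 13.4%. The 5 sets with a 12 h minimum belonged to Hk2, Aldoa, Tpi1, Pkm and Ldha, of which Hk2 and Ldha dipped by less than 2-fold.

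For 12 h over 0 h, 3 of 8 members were at least 2-fold higher (Pgk1, Aldoa and Pgam1), where 17.7% of 6379 genes were, and 3 were at least 2-fold lower (Pkm, Hk1 and Tpi1), where 27.3% were. The median log2 ratio of the members was -0.15, and that of all genes was -0.21. With values as deposited, 1 member was higher and 4 were lower, where 9.06% and 44.8% of all genes were. After quantile normalization 2 were higher and 4 lower, where 21.9% and 20.9% of all genes were. In both cases Aldoa was then represented by 160090_f_at. Of all genes past 2-fold, 39.3% were upward as scaled here, 16.8% without scaling, 58.7% with medians centred and 51.1% with quantiles equalized.

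For 24 h over 12 h, 2 of 8 members were at least 2-fold higher (Pkm and Tpi1), where 18.8% of 6141 genes were, and 0 were at least 2-fold lower, where 12.0% were. The members' median log2 ratio was 0.55 and that of all genes 0.17. After quantile normalization 4 members were higher, where 14.3% of all genes were. Aldoa and Ldha were then added at log2 ratios of 2.23 and 1.20. Leaving out sets with a suffix for possible cross-hybridization, which removes Aldoa and Pkm, 1 of 6 members was higher, where 19.7% of all genes were. The members' median was then 0.10, below the 0.18 of all genes. The upward share of all genes was 61.1%, and 39.4%, 42.1% and 50.9% with values as deposited, median centring and quantile normalization.

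For 24 h over 0 h, 3 of 8 members were at least 2-fold higher (Pgk1, Aldoa and Pgam1), where 14.5% of 6392 genes were, and 1 was at least 2-fold lower (Hk1), where 17.7% were. The members' median log2 ratio was 0.41 and that of all genes -0.08. The values as deposited turned this to 1 higher and 3 lower with a median of -0.75, where 4.50% and 49.3% of all genes were and their median was -0.98. The comparisons share arrays, so a low signal at 12 h enters the first 2 with opposite sign. The upward share of all genes was 45.0%, against 8.36%, 55.5% and 51.1% under the same alternatives.

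**Figure D3:**
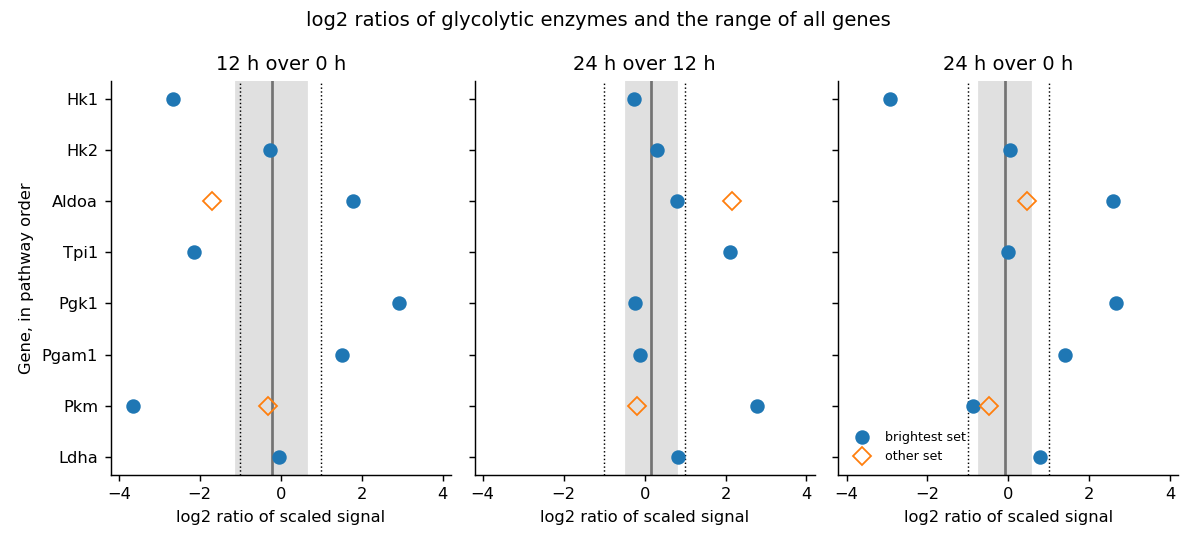
log2 ratio of scaled signal (x axis) for each measured enzyme in pathway order (y axis) in the 3 comparisons; filled circles are the brightest probe set, open diamonds another measured set, the grey line and band the median and the middle 50% of all genes, and dotted lines mark 2-fold. Pgk1 and Hk1 lie outside the band to either side in 12 h over 0 h and 24 h over 0 h, and the sets of Aldoa and Pkm lie far apart.

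The rest of the carbohydrate pathways was read from lists of genes chosen by function. Over all genes, 17.7% were at least 2-fold higher and 27.3% lower for 12 h over 0 h. The shares were 18.8% and 12.0% for 24 h over 12 h, and 14.5% and 17.7% for 24 h over 0 h. Of 13 other glycolytic isoenzymes on the array, 9 had a ratio; Pgk2, Pgam2, Pklr and Ldhc, the isoenzymes of testis, muscle and liver, were on the floor on all 3 arrays. At 12 h over 0 h, 2 of 9 were higher and 3 lower by 2-fold or more. The phosphofructokinase subunits, which control the committed step, were split: Pfkl was 2.74-fold lower and Pfkm at least 7.13-fold lower, whereas Pfkp was at least 2.56-fold higher, although its other set gave a bound of only 1.10-fold. The muscle enolase Eno3 was 4.47-fold lower. At 24 h over 12 h, 3 of 9 were higher and 0 lower, with Eno3 2.64-fold, the aldolase Aldoc 2.38-fold and Pfkm at least 4.31-fold higher. Of 10 striated muscle markers, 8 had a ratio for 12 h over 0 h, 2 of them at least 2-fold higher and 2 lower. Their signals summed to 591, 417 and 387 at the 3 times, with Tnnt3 on the floor throughout. Without Actc1, which had 280, 88.6 and 56.4, the other 9 summed to 311, 328 and 331. The part of muscle cells in the ratios of Eno3 and Pfkm was not tested.

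Of 9 carriers of glucose and lactate on the array, 5 were on the floor on all arrays, among them the lactate carriers Slc16a1 and Slc16a7. The other 4 had a ratio, and for 12 h over 0 h 3 of 4 were at least 2-fold lower and 0 higher. Bsg, the membrane chaperone of the lactate carriers, had signals of 400, 42.6 and 320, and was 9.37-fold lower at 12 h than before culture, then 7.51-fold higher at 24 h. The glucose transporter Slc2a3 had 46.1, 15.4 and 37.8, and Slc2a1, the main glucose transporter of embryonic cells, 84.9, 51.9 and 138. From 12 h to 24 h, 3 of 4 were at least 2-fold higher, where 18.8% of all genes were. Among them Slc2a1 was 2.67-fold and Slc2a3 2.46-fold higher. Against 0 h, at 24 h 0 were at least 2-fold higher and 1 was lower, Slc2a5, the fructose transporter, by 2.90-fold.

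Of 11 regulators of the pathway with a ratio for 12 h over 0 h, 3 were at least 2-fold higher, 1 was lower and 7 were within 2-fold. Hif1a, the oxygen-regulated subunit of HIF-1, had signals of 752, 2442 and 1384, and its other probe set 749, 2216 and 1260. Both Hif1a sets carry the suffix that marks probes shared within a gene family. Pdk1, a kinase that shuts pyruvate out of the mitochondrion's pyruvate dehydrogenase, had 54.7, 222 and 104, and Pdk4, a relative, 22.3, 52.7 and 48.3. Relative to 0 h, the 12 h signal was 4.06-fold higher for Pdk1, 3.25-fold for Hif1a and 2.36-fold for Pdk4. Arnt, the partner of Hif1a, was at least 2.48-fold lower by its brighter set and at least 1.25-fold higher by the other. From 12 h to 24 h, 1 of 9 was higher (Egln2, an oxygen-sensing hydroxylase, 2.03-fold) and 1 was lower (Pdk1, 2.14-fold).

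Among routes that branch off glycolysis, the pentose phosphate pathway had 4 of 6 genes at least 2-fold lower and 0 higher at 12 h over 0 h. The lactonase Pgls was 7.52-fold, the transketolase Tkt 4.72-fold, the dehydrogenase Pgd 4.44-fold and the transaldolase Taldo1 3.07-fold lower; the other set of Pgd, on the floor at 0 h, was at least 1.62-fold higher. From 12 h to 24 h, 2 of 6 were higher and 0 lower, Pgls by 4.02-fold and Tkt by 2.77-fold. Glycogen metabolism had 3 of 5 genes higher and 2 of 5 lower at 12 h over 0 h, with the phosphoglucomutase Pgm2 5.26-fold and Ugp2, which makes UDP-glucose, 3.35-fold higher and the glycogen phosphorylase Pygb 4.77-fold lower. For gluconeogenesis Fbp1, Fbp2 and Pck1 were on the floor on all arrays, and neither of the 2 genes with a ratio reached 2-fold at 12 h over 0 h.

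Where pyruvate enters the mitochondrion, 5 genes of pyruvate dehydrogenase and pyruvate carboxylase had a ratio. For 12 h over 0 h, 1 of them was at least 2-fold higher and 0 were lower. Dlat, the acetyltransferase subunit, was 7.50-fold higher at 12 h than at 0 h, but its other probe set had a log2 ratio of -0.16. For 24 h over 12 h, 0 of 5 were higher and 2 were lower, Dld by 3.78-fold and Pdhb by 2.91-fold. In that comparison Dlat had a log2 ratio of -0.61 by its brighter set and 0.92 by the other. In the tricarboxylic acid cycle 8 of 18 genes were at least 2-fold lower at 12 h over 0 h and 1 was higher, with a median of -0.83. The succinate dehydrogenase subunits Sdhc and Sdhb were 4.39-fold and 3.31-fold lower and Ogdh, of the oxoglutarate dehydrogenase, 4.32-fold lower. The higher gene was Sucla2, a subunit of succinyl-CoA synthetase, at 10.1-fold, from a set with a family suffix, while its other set gave at least 1.56-fold. At 24 h over 12 h 5 of 16 were higher and 1 was lower, Idh1 at 6.04-fold. Over all 60 genes of these lists with a ratio, 16.7% were at least 2-fold higher at 12 h over 0 h and 35.0% lower, next to 17.7% and 27.3% of all genes. For 24 h over 12 h, 28.1% of 57 were higher and 8.77% lower, next to 18.8% and 12.0%. For 24 h over 0 h the shares were 14.8% and 18.0% of 61, next to 14.5% and 17.7%.

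**Figure D4:**
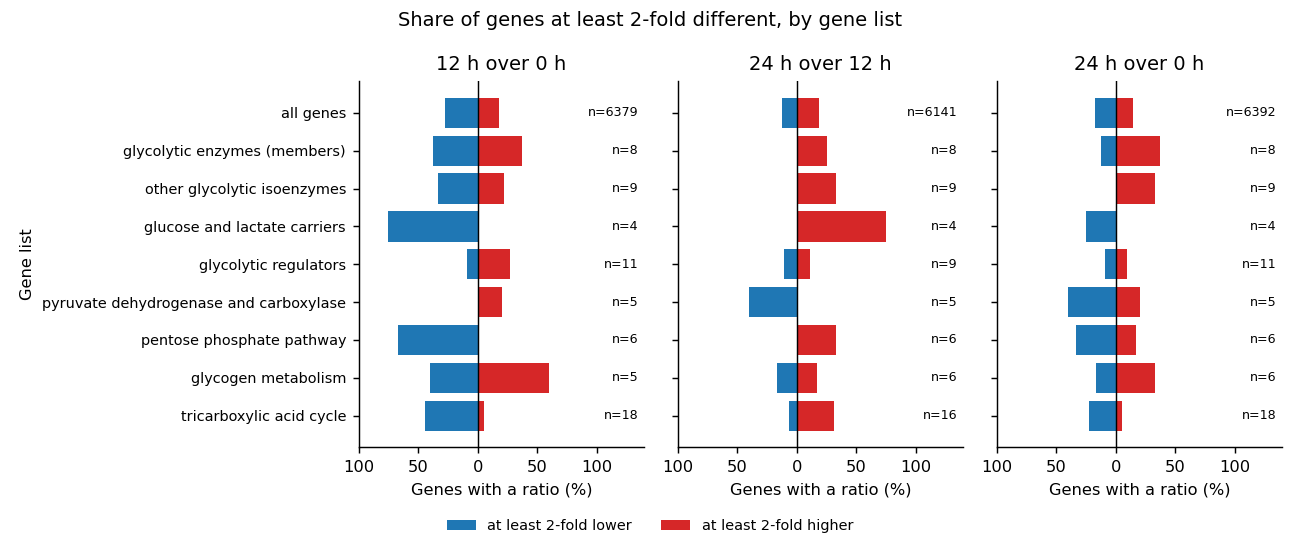
Share of genes (x axis, % of those with a ratio, n beside each bar) at least 2-fold lower (blue, to the left) or higher (red, to the right) for all genes, the glycolytic enzymes and 7 related lists, in the 3 comparisons. Carriers and the pentose phosphate pathway lie to the left for 12 h over 0 h, with 3 of 4 and 4 of 6 genes lower, and to the right for 24 h over 12 h.

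The members' ratios were compared over 9 processing choices. Hk1, Tpi1 and Pkm stayed at least 2-fold lower and Pgk1 at least 2-fold higher for 12 h over 0 h under every choice that kept the gene, with ranges of the log2 ratio of -3.34 to -2.20 for Hk1, -2.83 to -1.68 for Tpi1, -4.33 to -1.98 for Pkm and 2.23 to 3.37 for Pgk1. Pgam1 ranged from 0.82 to 1.97 and was under 2-fold with values as deposited only. For Hk1, Tpi1, Pgk1 and Pgam1, with 1 probe set each, only the other scalings could change the value. Aldoa ranged from -2.40 to 2.23. For 24 h over 12 h, Tpi1 ranged from 1.81 to 2.18 and Pkm from 1.30 to 2.78. None of these choices represented Pkm by 162032_f_at alone. That set had log2 ratios of -0.31 for 12 h over 0 h and -0.18 for 24 h over 12 h, both within 2-fold.

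**Figure D5:**
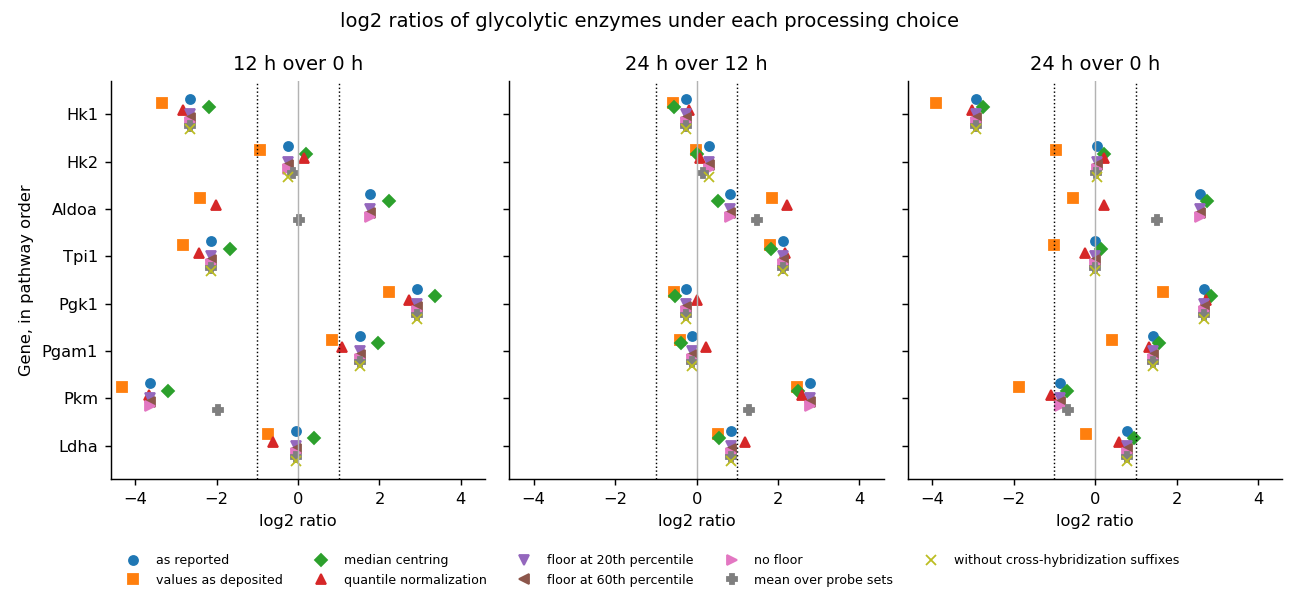
log2 ratio (x axis) of each measured enzyme in pathway order (y axis) in the 3 comparisons under each processing choice (1 symbol and colour per choice, shifted vertically to be seen), with dotted lines at 2-fold. The symbols of Hk1, Pgk1 and Tpi1 lie close together, and only the other scalings could move them. Those of Aldoa span -2.40 to 2.23 for 12 h over 0 h.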

How the data were processed

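The 3 arrays hold amplified RNA on a 1-colour Affymetrix platform, and the labels' protocols name Microarray Suite 5.0 and GeneSpring 6.0. The deposited values are intensities, 1 linear signal per probe set without detection calls; no source used here states a scaling by the authors. Of 12488 probe sets, 66 are controls and 10833 of the rest name 1 gene (10817 matched to RefSeq, GRCm38.p6, by identifier). The 396 sets naming several genes and the 1193 naming none were not assigned to a gene. Each array was scaled to the common 2% trimmed mean (factors 0.676, 1.09 and 1.36), signals were floored at the 40th percentile (13.5) and log2 ratios were taken; a gene with 1 array on the floor has a bound ("at least"), and one with both has no ratio. The number of arrays limits the precision. The rule named every member, and of the other lists up to 4 genes of at least 2-fold per comparison. The members and lists were chosen with earlier results of these data known. The scaling, floor and ratio steps were tested on simulated data for 12 h over 0 h. The other steps were not, among them the choice of the brightest probe set, the alternatives and the promoter search. All steps were run with numpy 2.4.6, pandas 2.3.3 and scipy 1.17.1. Alternatives were other scalings, floors, gene summaries and a 3-fold rule; counting each probe set by itself was added after seeing the data.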

Additional observations from a re-analysis of the deposited data

How the results depend on the processing

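With values as deposited, 1 member was at least 2-fold higher for 12 h over 0 h, where 9.06% of all genes were. For 24 h over 0 h 1 was higher and 3 were lower, where 4.50% and 49.3% were. The median log2 ratios were -1.67, 0.25 and -0.75 in the 3 comparisons, beside -0.83, -0.12 and -0.98 over all genes. For 12 h over 0 h the median was 0.30 after median centring and -1.32 after quantile normalization, beside 0.18 and 0.07 over all genes. Quantile normalization also gave 4 members higher for 24 h over 12 h, where 14.3% of all genes were. It gave 2 lower for 24 h over 0 h, where 15.8% were. Without suffixes of possible cross-hybridization, which leaves 6 members, 1 was higher for 24 h over 12 h, where 19.7% of all genes were. The median was then 0.10, beside 0.18 over all genes. The ratio of Aldoa for 12 h over 0 h reversed to -2.40 with values as deposited and to -2.02 after quantile normalization, and for 24 h over 0 h to -0.55 with values as deposited; in these cases 160090_f_at was the brighter of its sets and stood for the gene. Of 186 ratios of single members recomputed, 172 stayed on their side of the 2-fold rule, 4 dropped under 2-fold, 7 passed it and 3 reversed. Many of the 186 could not change, so the 172 do not measure stability. These were the ratios under other floors, under the mean for genes with 1 set, and without suffixes for the 6 genes kept. The other floors changed none of the members' counts or medians, because each member's brightest set lay above them. The 3-fold rule gave 2 higher and 3 lower members for 12 h over 0 h (9.56% and 15.2% of all genes), 2 and 0 for 24 h over 12 h (7.41% and 4.58%), and 2 and 1 for 24 h over 0 h (6.63% and 7.76%). Counting each probe set by itself gave 3 higher and 4 lower of 10 for 12 h over 0 h. Of all probe sets with a ratio, 16.7% were higher and 27.5% lower. No paired analysis was possible because each time point had 1 array. Without detection calls, signal near the floor cannot be told from background.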
